A study of Mus musculus with 16 samples.

Results

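Hearts that had lost Chd7 in the anterior mesoderm were compared with control hearts at E11.5, in days of embryonic development. The comparison used 4 mutant and 4 control arrays, chosen by their titles, of 16 in the series. The mutants were Chd7fl/fl;Mesp1Cre embryos, in which both copies of Chd7 are floxed and Cre recombinase is driven by the Mesp1 gene from the early cardiac and pharyngeal mesoderm onwards, so that cells outside this lineage, such as neural crest, keep the gene. The controls were labelled WT, whereas the methods give them as Chd7+/+;Mesp1-Cre. The labels of all 16 arrays name a cross of Chd7fl/+;Mesp1-Cre with Chd7fl/fl mice, in which every embryo inherits at least 1 floxed copy, so these sources differ on the control genotype. All embryos were of the C57BL/6 strain, no other treatment is given, and each array held RNA from 1 whole heart. The remaining 8 arrays were 4 mutant and 4 control hearts at E13.5, of the same genotypes and strain.

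CHD7 is a chromatin remodeller that uses ATP to move nucleosomes, largely at enhancers and promoters, and loss of 1 copy causes CHARGE syndrome in humans. At E11.5 the heart is a looped tube whose chambers are being divided. It holds heart muscle, the endocardium that lines it, the epicardium that covers it, the mesenchyme of the cushions from which valves and septa form, ingrowing neural crest and nerves, and circulating blood. A whole-heart array averages over these tissues, and fewer cells of a type cannot be told apart from less RNA per cell.

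Levels are given as log2 RMA values, the deposited unit, in which a difference of 1 is a doubling. They cannot be set against each other between genes. Values of single hearts are listed in the order of replicates 1 to 4. The log2 FC is the mutant minus the control mean, and it comes with the standard error and the adjusted p of limma, fitted over all 16 arrays and adjusted by the Benjamini-Hochberg procedure over 34760 probe sets. A gene was called when its adjusted p was under 0.05 and its log2 FC over 0.5 in size, and its value is that of the brightest probe set naming this gene alone. A gene was said to pass the looser threshold when its unadjusted p was under 0.05, with the same limit on the log2 FC, so that called genes pass it too. Folds and percentages of control are the log2 FC taken out of logs. Nothing says that the hearts of a group came from separate litters. The p values measure the spread between hearts of a group, pooled over the hearts of both stages, and the number of arrays limits the precision. Array weights from limma, which are lower for arrays of larger spread, were 0.512 to 0.972 at E11.5 and 1.104 to 2.175 at E13.5. The pooled spread can thus be smaller than that of the E11.5 hearts.

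Chd7 lay at 9.26, 9.73, 9.16 and 9.68 in mutant hearts and at 10.64, 10.89, 10.64 and 10.84 in control hearts. Every mutant heart was below every control heart, and 25 of the 30 Chd7 probe sets were called lower (log2 FC -1.29 with a standard error of 0.14, adjusted p = 0.00132). None of the other 9 CHD remodeller genes measured passed either threshold, with log2 FC values from -0.12 to 0.28. Of 18 sarcomere genes of heart muscle, 17 had a mean level above the median of all genes. Arrays of E11.5 correlated with each other at 0.977 to 0.986. Mutant replicates 1 and 4 had high Xist (10.71, 5.60, 5.57 and 10.89, against 6.67, 5.70, 5.26 and 6.35 in control hearts) and low Eif2s3y, a Y-linked gene (4.37, 8.38, 8.35 and 4.00, against 8.59, 8.26, 8.67 and 9.18). The other 6 hearts had the reverse. By these genes 2 of 4 mutant hearts and 0 of 4 control hearts were female, so sex is partly confounded with genotype. Fits with a covariate of Y-linked expression and without these 2 mutant hearts are given below, but they cannot fully separate sex from genotype. Mutant replicate 4 also stood apart in hypoxia-induced genes.

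Of 19937 genes, 30 were called lower and 20 higher in mutant hearts, which is 0.150% and 0.100% of the genes tested. At the looser threshold 317 were lower (1.59%) and 265 higher (1.33%). The median log2 FC of all genes was 0.00, and 49.1% of them were lower in the mean. The 4 mutant hearts lay entirely below the 4 control hearts in 386 genes (1.94%) and entirely above them in 397 (1.99%), among them 49 of the 50 called genes. The semaphorin, Slit-Robo and calcium pathways that the study followed up held 5 of the called genes, which are only counted here. A further 4 genes, Trdn, Etv1, Dnah3 and 4933434E20Rik, were called only through probe sets other than their brightest. For Trdn, a calcium gene that the study followed up and not among these 5, several probe sets were called lower. The brightest of these had a mean level of 10.883 (log2 FC -0.74, adjusted p = 0.0201). The brightest Trdn probe set of all, at 10.886, had a log2 FC of -0.56 (adjusted p = 0.0834). With the 8 arrays of E11.5 fitted alone, 0 genes were called lower and 2 higher (Casq2 and Plac8), and without the mutant hearts of high Xist, replicates 1 and 4, the counts were 18 and 10. A covariate of Y-linked expression gave 10 and 7. Outside those pathways, 11 genes, Chd7, Igfbpl1, Dkk1, Mb, Grin3a, Plac8, Cpn1, Mr1, Gfra2, Rgs6 and Trabd2b, were called whichever of the 16 hearts was left out. The other calls named below were each lost without at least 1 heart, and those hearts or their number are given with them. They are written M1 to M4 and C1 to C4 for mutant and control replicates at E11.5, and m1 to m4 and c1, c2, c4 and c5 at E13.5. Of the 11 genes, Dkk1, Gfra2, Rgs6 and Plac8 were not called without both M1 and M4 (adjusted p = 0.111, 0.0753, 0.0694 and 0.0761). Dkk1, Gfra2 and Plac8 were not called with array weights either.

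**Figure D1:**
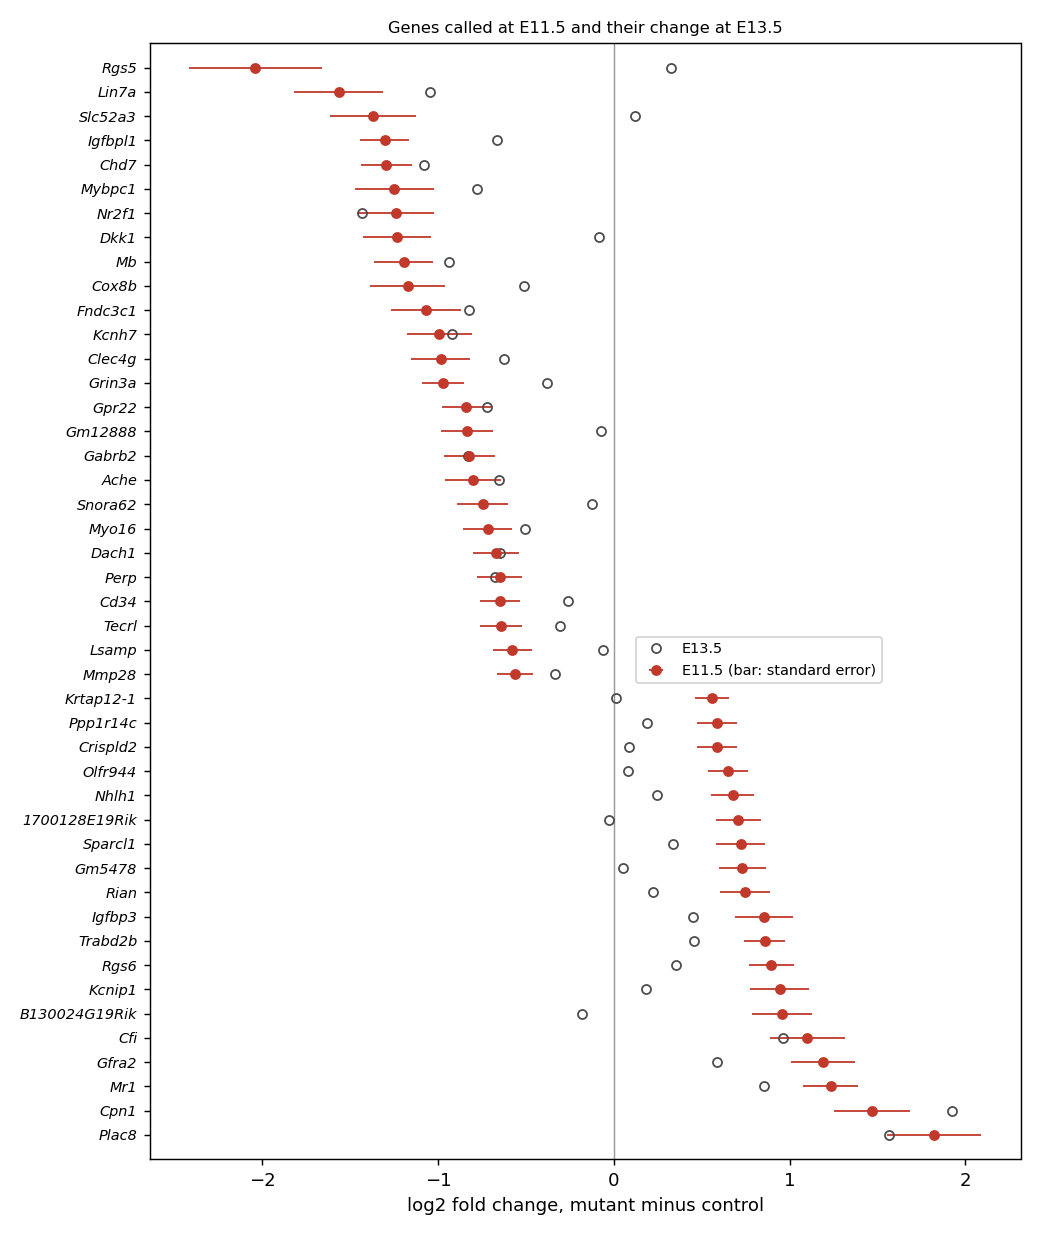
The log2 FC (mutant minus control, horizontal axis) of the 45 genes called at E11.5 outside the semaphorin, Slit-Robo and calcium pathways, with filled points and standard errors for E11.5 and open points for E13.5. Rgs5 had the lowest value at E11.5 (-2.04) and Plac8 the highest (1.82), and the values at E13.5 were 0.32 and 1.57.

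Among muscle genes, a pair for oxygen use and 1 for a myosin-binding protein fell, while no core contractile gene of heart muscle passed a threshold. Of the 18 sarcomere genes of embryonic heart muscle 0 were called, against 0.150% lower and 0.100% higher of all genes, and their log2 FC values ran only from -0.12 to 0.12, with a median of 0.00. Mb, which encodes the oxygen-binding protein myoglobin, lay at 9.17, 8.59, 9.20 and 8.55 in mutant and 10.04, 9.98, 10.27 and 10.01 in control hearts. The groups did not overlap, and the mutant mean was 43.7% of the control mean (log2 FC -1.20 with a standard error of 0.17, adjusted p = 0.00593). Cox8b, which encodes the heart and skeletal muscle form of subunit 8 of cytochrome c oxidase, lay at 8.81, 8.29, 9.29 and 7.98 in mutant and 9.74, 9.68, 9.90 and 9.74 in control hearts. It fell to 44.4% of the control mean, with mutant replicate 4 the lowest and mutant replicate 3 nearest to the controls (log2 FC -1.17 with a standard error of 0.21, adjusted p = 0.0323). The broadly expressed form of the same subunit, Cox8a, had a log2 FC of 0.04, and the 12 other nuclear genes of cytochrome c oxidase measured ran from -0.05 to 0.13. In the list of 18 muscle genes for oxygen and energy supply, Mb and Cox8b were the only ones past either threshold, and the median was -0.05. The call of Cox8b was lost without M2, M4, C1, C2, C3, C4 or c5 (adjusted p 0.00479 to 0.312 over the alternatives).

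Among 24 sarcomere genes named for skeletal muscle, 1 was called and 5 more passed the looser threshold, 4 lower and 2 higher in all, where 1.59% and 1.33% of all genes passed it, and the median of the list was -0.03. Mybpc1, a myosin-binding protein known from slow skeletal muscle, lay at 6.56, 5.85, 6.20 and 6.22 in mutant and 7.59, 7.43, 7.45 and 7.36 in control hearts. The groups did not overlap, and it fell to 42.1% of control (log2 FC -1.25 with a standard error of 0.23, adjusted p = 0.0303). This call was lost without M2, M3, M4, C1, C2, C3 or C4 (adjusted p 0.00666 to 0.199). Also lower at the looser threshold were Myl1, a fast alkali light chain (-0.91, adjusted p = 0.360), Klhl41, which stabilises thin filaments (-0.89, adjusted p = 0.120), and Cmya5 (-0.51, adjusted p = 0.238). In the other direction, Myom2, an M-band protein, had a log2 FC of 1.05 (adjusted p = 0.0691), and Myh8, the perinatal myosin heavy chain, one of 0.60 (adjusted p = 0.122). Myom2 lay at 7.85, 6.93, 7.62 and 7.24 in mutant and 6.06, 6.82, 6.12 and 6.44 in control hearts, with mutant replicate 2 barely above control replicate 2. The skeletal sarcomere list thus held genes of both signs.

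The 300-base promoter windows of Mb, Cox8b and Mybpc1 are shown because these were the called muscle genes outside the calcium pathway. Each runs from 250 bases before to 50 bases after a transcription start in RefSeq (build GRCm38.p6), printed on the strand of the gene. Capitals mark CAGCTG, the E-box read by muscle basic helix-loop-helix factors, which reads the same on both strands.
Mb (chr15:77022678-77022977, minus strand): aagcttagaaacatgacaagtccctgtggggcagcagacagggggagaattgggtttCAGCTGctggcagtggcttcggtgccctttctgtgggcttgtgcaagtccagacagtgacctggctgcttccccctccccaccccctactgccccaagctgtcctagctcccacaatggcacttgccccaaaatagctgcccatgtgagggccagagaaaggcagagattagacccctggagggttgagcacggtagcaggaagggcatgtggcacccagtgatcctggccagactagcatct
Cox8b (chr7:140900397-140900696, minus strand): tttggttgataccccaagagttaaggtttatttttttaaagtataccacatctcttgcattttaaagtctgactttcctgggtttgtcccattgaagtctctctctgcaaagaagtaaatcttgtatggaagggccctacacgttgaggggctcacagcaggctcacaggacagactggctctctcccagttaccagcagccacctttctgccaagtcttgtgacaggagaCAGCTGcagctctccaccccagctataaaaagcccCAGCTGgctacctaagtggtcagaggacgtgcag
Mybpc1 (chr10:88605103-88605402, minus strand): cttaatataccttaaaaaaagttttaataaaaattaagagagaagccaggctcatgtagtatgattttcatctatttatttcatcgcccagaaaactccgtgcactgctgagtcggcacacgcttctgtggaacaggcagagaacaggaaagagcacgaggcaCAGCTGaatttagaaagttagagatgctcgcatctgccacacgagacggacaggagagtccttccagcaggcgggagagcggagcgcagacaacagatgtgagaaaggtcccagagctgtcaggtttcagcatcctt
CAGCTG stood once in the Mb and Mybpc1 windows and at 2 places in that of Cox8b. Mb had 3 windows, of which the most upstream held none. Of all 32851 RefSeq windows, 16.3% held it. By gene, it stood in 18.3% of 27025 genes, in 6 of 23 genes called lower and in 4 of 13 called higher that had a window, in 8 of 16 of the muscle energy list and in 8 of 18 of the skeletal sarcomere list. The genes of the muscle energy list that held it were Mb, Cox8b, Ckm, Ckmt2, Pygm, Pgam2, Eno3 and Phka1, and of these only Mb and Cox8b passed a threshold, so the motif stood both in genes that fell and in genes past no threshold. The GATA factor motif AGATAA was searched for on both strands, stood in 11.2% of windows and was in none of these 3 genes. For the TATA box, read as TATAAA on either strand, the share was 13.6%, with a match in Cox8b alone of the 3. No binding was measured on these arrays.

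Genes of cardiac rhythm and its autonomic control changed in both directions. Rgs6, a brake on the muscarinic slowing of the sinus node, lay at 9.41, 9.17, 9.14 and 9.49 in mutant and 8.59, 8.23, 8.39 and 8.42 in control hearts. All mutant hearts were above all controls, and it rose 1.86-fold (log2 FC 0.90 with a standard error of 0.13, adjusted p = 0.00615). Of the 17 sinus node and pacemaker genes measured it was the one called, and Shox2 and Smoc2 passed the looser threshold upwards. For all genes the shares were 0.100% called higher and 1.33% higher at the looser threshold. Shox2, a transcription factor that sets up the sinus node, had the values 8.15, 7.94, 7.71 and 7.55 in mutant and 7.13, 7.59, 6.36 and 6.13 in control hearts, which overlapped through control replicate 2 (log2 FC 1.03 with a standard error of 0.31, adjusted p = 0.257). The pacemaker channel gene Hcn4 had a log2 FC of 0.40 (adjusted p = 0.306), and the L-type channel gene Cacna1d, which is also in the calcium pathway, one of -0.40 (adjusted p = 0.193). The median of the list was 0.12, with mutant hearts at 0.16, 0.06, 0.02 and 0.14 and control hearts at 0.03, 0.09, -0.12 and -0.03 relative to the control mean, so the hearts overlapped.

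Both cholinesterase genes were lower in the mean of mutant hearts. Ache, which encodes the enzyme that breaks down acetylcholine, lay at 8.24, 8.86, 8.46 and 8.46 in mutant and 9.51, 8.83, 9.25 and 9.62 in control hearts. Mutant replicate 2 was slightly above control replicate 2, so the groups overlapped, the only such case among the called genes. It fell to 57.5% of control (log2 FC -0.80 with a standard error of 0.16, adjusted p = 0.0497), just past the threshold, and the call was lost without M1, M3, M4, C1, C3, C4, m1, m2, m3, m4, c1, c2, c4 or c5 (adjusted p 0.0113 to 0.442). The related Bche had a log2 FC of -0.68 (adjusted p = 0.119) and the muscarinic receptor gene of the heart, Chrm2, one of -0.61 (adjusted p = 0.273). For both, all mutant hearts were below all control hearts. Of the 15 cholinesterase, acetylcholine receptor and adrenaline receptor genes measured these 3 were lower at the looser threshold and none was higher, against 1.59% and 1.33% of all genes.

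Of 28 potassium channel and partner genes, Kcnh7 was called lower and Kcnip1 higher, against 0.150% and 0.100% of all genes. Kcnh7, an ERG-type channel, lay at 7.77, 7.42, 7.20 and 7.58 in mutant and 8.23, 8.84, 8.70 and 8.16 in control hearts (log2 FC -0.99 with a standard error of 0.19, adjusted p = 0.0354). Kcnip1, a partner of Kv4 channels, lay at 7.23, 6.81, 6.71 and 7.17 in mutant and 6.29, 5.95, 6.12 and 5.79 in control hearts (log2 FC 0.94 with a standard error of 0.17, adjusted p = 0.0287). Neither gene overlapped between the groups. The main ERG channel gene of the heart, Kcnh2, had a log2 FC of -0.01, and the Kv4 partner of adult ventricle, Kcnip2, one of 0.00. Kcne3, Kcnj8, Kcnmb2 and Kcnc1 passed the looser threshold upwards (0.96, 0.60, 0.54 and 0.51), so that with Kcnip1 5 of 28 were higher, against 1.33% of all genes. Without mutant replicate 4 the value of Kcne3 was 0.50. The call of Kcnh7 was lost without M2, M3, M4, C2, C3, c2, c4 or c5 (adjusted p 0.0171 to 0.260), and that of Kcnip1 without M1, M4, C2, C3 or C4 (0.0199 to 0.201).

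Receptor genes better known from neurons were also among those that fell. Grin3a, a subunit of NMDA-type glutamate receptors, lay at 6.85, 6.89, 6.44 and 6.99 in mutant and 7.81, 7.84, 7.81 and 7.60 in control hearts and fell to 51.0% (log2 FC -0.97 with a standard error of 0.12, adjusted p = 0.00238). Of the 22 other glutamate receptor genes none was called, Grin2b (-0.61) and Grm6 (-0.53) were lower and Grm5 (0.56, or 0.33 without control replicate 4) higher at the looser threshold. The shares of all genes at it were 1.59% and 1.33%. Also called lower were Gabrb2, a subunit of GABA-A receptors (log2 FC -0.82 with a standard error of 0.15, adjusted p = 0.0292), and Gpr22, an orphan receptor known from brain and heart (log2 FC -0.84 with a standard error of 0.14, adjusted p = 0.0188). Tecrl, an endoplasmic reticulum gene mutated in an inherited human arrhythmia, lay at 9.78, 9.53, 9.52 and 9.97 in mutant and 10.23, 10.34, 10.32 and 10.48 in control hearts (log2 FC -0.64 with a standard error of 0.12, adjusted p = 0.0341). The call of Gabrb2 was lost without M1, M2, M4, C2, C3 or C4 (adjusted p 0.00831 to 0.384) and with the median of its 3 probe sets, that of Gpr22 without C1 or C3 (0.00713 to 0.276), and that of Tecrl without M1, M2, M3, C1, C2, C3, C4, m4, c4 or c5 (0.00741 to 0.301).

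**Figure D2:**
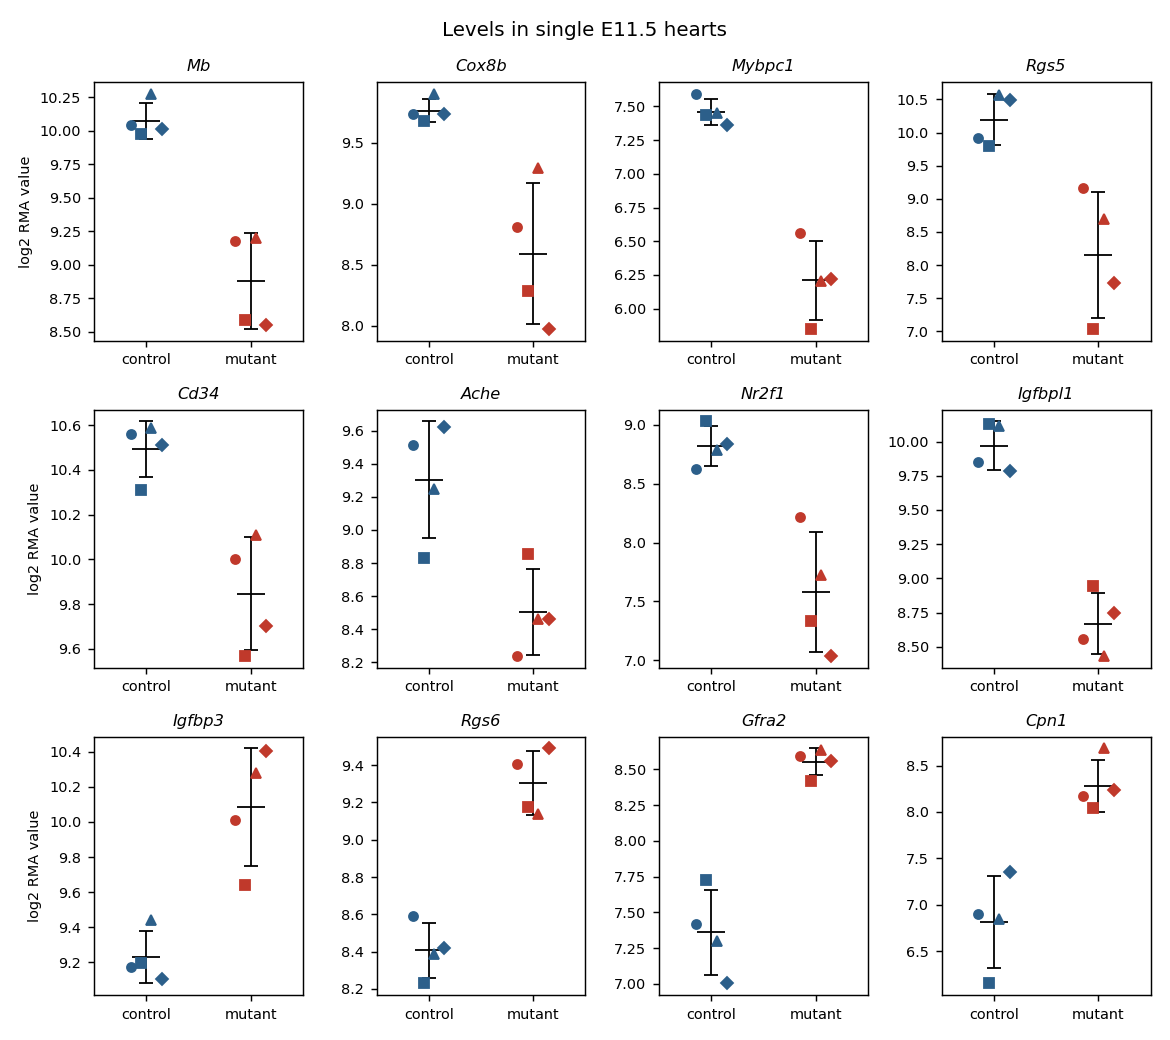
Log2 RMA values (vertical axis, scaled separately in each panel) of 12 called genes in single E11.5 hearts, with blue points for control and red points for mutant hearts, shaped by replicate number (circle 1, square 2, triangle 3, diamond 4), and the mean with 1 SD in black. The groups are apart in every panel except that of Ache, where mutant replicate 2 and control replicate 2 meet.

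Among vessel genes, Rgs5, a regulator of G-protein signalling used as a pericyte marker, had the lowest log2 FC of all called genes. It lay at 9.16, 7.04, 8.70 and 7.73 in mutant and 9.92, 9.80, 10.57 and 10.48 in control hearts. Mutant hearts spread over more than 2 log2 units, with replicate 2 lowest, yet all were below the controls, and the mean fell to 24.3% of control (log2 FC -2.04 with a standard error of 0.38, adjusted p = 0.0340). The call was lost without M2, M4, C1, C2, C3, C4 or c2 (adjusted p 0.00888 to 0.293). Of the 16 pericyte and smooth muscle genes measured no other was called, and the median was 0.07. At the looser threshold Angpt1 was lower as well, and the pericyte channel gene Kcnj8 above was higher. Of all genes 0.150% were called lower, and 1.59% were lower and 1.33% higher at the looser threshold. The receptor Pdgfrb, which defines pericytes, had a log2 FC of -0.24, and the smooth muscle genes Acta2 and Tagln had values of 0.06 and 0.04. Angpt1, the ligand of the Tie2 receptor, had a log2 FC of -0.83 (adjusted p = 0.114), and its receptor gene Tek one of -0.24 (adjusted p = 0.312). For Angpt1 the mutant values were 9.36, 9.57, 9.01 and 8.72 and the control values 9.79, 9.97, 10.01 and 10.23, with no overlap.

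Of 21 endothelial genes 1 was called, against 0.150% lower and 0.100% higher of all genes. This was Cd34, a sialomucin of endothelium and blood progenitors. It lay at 10.00, 9.57, 10.11 and 9.70 in mutant and 10.56, 10.31, 10.59 and 10.51 in control hearts and fell to 63.9% (log2 FC -0.65 with a standard error of 0.11, adjusted p = 0.0277), and the call was lost without M2, M4, C1, C3 or C4 (adjusted p 0.00402 to 0.359). Cdh5 and Pecam1, which define endothelium, had log2 FC values of -0.05 and 0.02, and the median of the list was -0.05. At the looser threshold Etv2, an early endothelial transcription factor, was lower (-0.51) and the tight junction gene Cldn5 higher (0.53). Of all genes 1.59% were lower and 1.33% higher at it. Clec4g, a lectin of sinusoidal endothelium, lay at 6.999, 7.35, 7.13 and 6.98 in mutant and 8.22, 7.97, 8.30 and 7.91 in control hearts (log2 FC -0.99 with a standard error of 0.17, adjusted p = 0.0203), a call lost without M4, C1 or C3 (adjusted p 0.00816 to 0.142). Among 12 venous and lymphatic genes none was called. Lyve1, a hyaluronan receptor of lymphatic endothelium and of some macrophages, had a log2 FC of 0.79 (adjusted p = 0.142), and Ccbe1, needed for lymphatic growth, one of 0.52 (adjusted p = 0.264). Prox1, which defines lymphatic endothelium, had one of 0.02.

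Of 17 epicardial genes 2 were lower in the mean, against 49.1% of all genes, the median was 0.26 and none was called. Relative to the control mean, the list median was 0.48, 0.13, 0.08 and 0.35 in the 4 mutant hearts and -0.16, -0.05, 0.04 and 0.20 in the 4 control hearts, so that mutant replicates 2 and 3 lay below control replicate 4. Without mutant replicates 1 and 4, the hearts of high Xist, the median log2 FC was 0.05 (0.15 without replicate 1 alone), and that of Wt1, the gene that defines epicardium, was -0.01. Past the looser threshold were Aldh1a2, the enzyme that makes retinoic acid in the epicardium (0.77, adjusted p = 0.235), the keratin genes Krt7 (0.54, adjusted p = 0.221) and Krt18 (0.77, adjusted p = 0.313), and Bnc2 (0.55, adjusted p = 0.423). Aldh1a2 lay at 10.60, 10.03, 10.27 and 10.11 in mutant and 9.34, 9.37, 9.53 and 9.70 in control hearts, with no overlap. Krt18 was at 9.70, 9.75, 9.72 and 11.05 in mutant hearts, and its log2 FC was 0.44 without replicate 4. The epicardial transcription factors Wt1 and Tcf21 had log2 FC values of 0.26 and 0.03, neither past a threshold. The whole epithelial list of 28 genes had a median of 0.16, with 5 genes higher at the looser threshold, against 1.33% of all genes. Among the 5 were Krt5 (0.58), the tight junction gene Ocln (0.75) and Mal2 (0.76, or 0.39 without mutant replicate 3). The desmosomal genes Perp and Dsc3 were lower (-0.65 and -0.76).

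Genes of the cushion mesenchyme had a median below 0, again with no call. Of 19 genes 12 were lower in the mean, against 49.1% of all genes, and the median was -0.17, with mutant hearts at -0.14, -0.34, -0.04 and -0.17 and control hearts at 0.01, -0.02, 0.04 and -0.10, so that mutant replicate 3 lay among the controls. The median log2 FC was -0.25 without mutant replicate 2 and -0.26 without mutant replicate 4. Lower at the looser threshold were Has2, which makes the hyaluronan of the cushions (-0.65), Hapln1, which links it to proteoglycans (-0.69, adjusted p = 0.234), the matrix gene Lum (-0.98, or -0.49 without mutant replicate 4) and the transcription factor genes Meox1 (-0.65) and Prrx1 (-0.55). Hapln1 lay at 9.79, 10.50, 9.82 and 10.69 in mutant and 10.84, 10.92, 10.90 and 10.91 in control hearts, the controls all within 0.1. Sox9, a transcription factor of valve mesenchyme, had a log2 FC of -0.40 (adjusted p = 0.213), under the limit on the fold change. Tgfb3 was the exception, with a log2 FC of 0.58 (adjusted p = 0.231) that was 0.37 without mutant replicate 4. In all, 5 of the 19 genes were lower and 1 higher at the looser threshold, against 1.59% and 1.33% of all genes. Of 19 genes of matrix-cutting enzymes and their inhibitors 1 was called, against 0.150% lower and 0.100% higher of all genes. This was Mmp28, which was lower (log2 FC -0.56 with a standard error of 0.10, adjusted p = 0.0323). Mmp25 passed the looser threshold downwards (-0.80) and Mmp13 upwards (0.53). The matrix gene Sparcl1 was called higher, at 10.03, 9.84, 10.23 and 10.40 in mutant and 9.26, 9.30, 9.54 and 9.51 in control hearts (log2 FC 0.72 with a standard error of 0.14, adjusted p = 0.0433). These 2 calls were lost without M2, M3, M4, C1, C2, C4, c2 or c5 for Mmp28 (adjusted p 0.0123 to 0.301), and without M1, M3, M4, C1, C2, C3, C4, m2, m4, c2, c4 or c5 for Sparcl1 (0.0120 to 0.293).

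**Figure D3:**
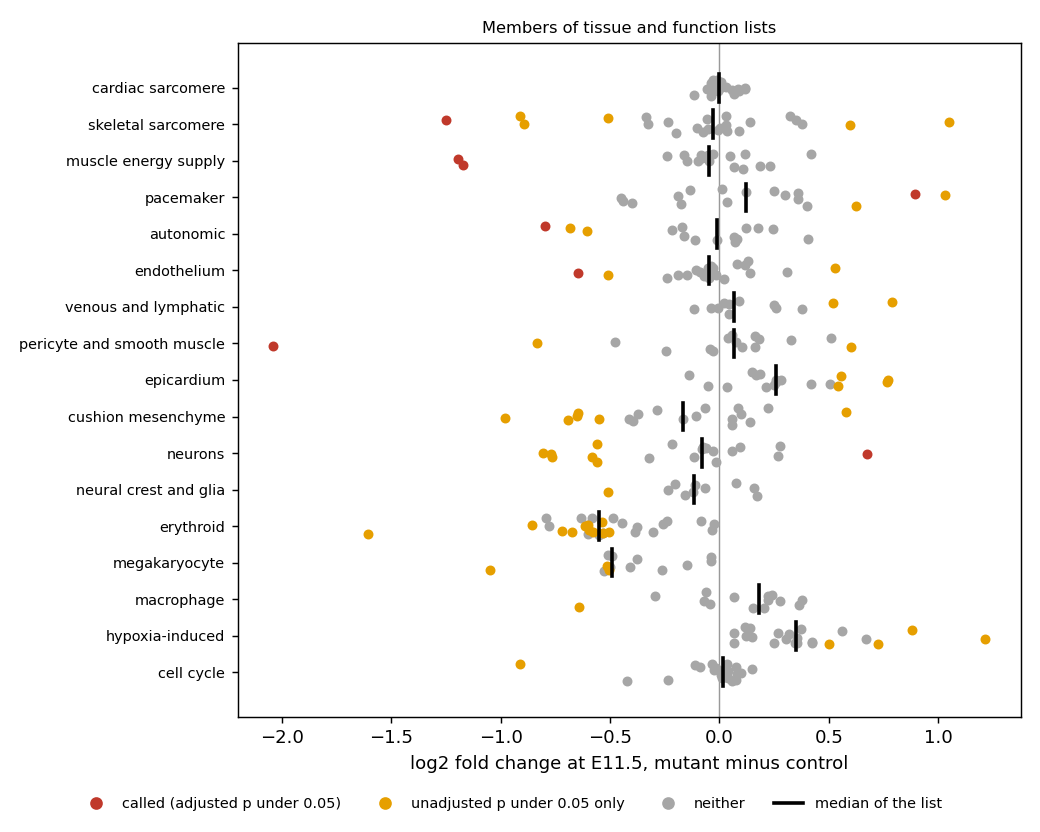
The log2 FC at E11.5 (horizontal axis) of every measured member of 17 lists of tissue and function genes (rows, with points spread vertically for legibility), coloured by the threshold passed, with the list median as a black bar. Cardiac sarcomere genes lie within 0.12 of 0, erythroid and megakaryocyte genes all lie below 0 and hypoxia-induced genes all above it.

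Among 13 genes of insulin-like growth factor signalling 2 were called, in opposite directions, against 0.150% lower and 0.100% higher of all genes. Igfbpl1, a relative of the insulin-like growth factor binding proteins, lay at 8.55, 8.95, 8.43 and 8.74 in mutant and 9.85, 10.13, 10.12 and 9.78 in control hearts and fell to 40.6% (log2 FC -1.30 with a standard error of 0.14, adjusted p = 0.000939). Igfbp3, the main carrier of insulin-like growth factors in plasma, lay at 10.01, 9.64, 10.28 and 10.40 in mutant and 9.17, 9.20, 9.44 and 9.10 in control hearts and rose 1.81-fold (log2 FC 0.85 with a standard error of 0.17, adjusted p = 0.0453). None of the 11 other genes of that list passed either threshold, Igf2 at 0.03 and Igf1 at -0.25. The call of Igfbp3 was lost without M1, M3, M4, C1, C2, C3, C4, m1, m3, c1, c2, c4 or c5 (adjusted p 0.0143 to 0.293).

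Of 26 Wnt pathway genes Dkk1 was called, against 0.150% lower and 0.100% higher of all genes. This antagonist, which blocks the Wnt co-receptors, lay at 6.87, 7.12, 7.48 and 6.86 in mutant and 8.35, 8.14, 8.26 and 8.51 in control hearts and fell to 42.6% (log2 FC -1.23 with a standard error of 0.19, adjusted p = 0.0127). Other antagonists went both ways at the looser threshold, Frzb lower (-0.77, adjusted p = 0.145) and Sfrp5 and Sost higher (0.73 and 0.55), and the receptor gene Fzd9 was lower (-0.50). The shares of all genes at it were 1.59% lower and 1.33% higher. The Wnt target Axin2 had a log2 FC of -0.16, past neither threshold. Trabd2b, a membrane protease that inactivates Wnt proteins, was called higher, at 9.11, 9.13, 9.37 and 9.14 in mutant and 8.49, 8.54, 8.07 and 8.21 in control hearts (log2 FC 0.86 with a standard error of 0.12, adjusted p = 0.00475), but not with the median of its 2 probe sets.

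Of 29 TGF-beta family genes none was called, although 7 passed the looser threshold, 4 lower and 3 higher, against 1.59% and 1.33% of all genes. Inhba, the activin A subunit, lay at 8.39, 7.99, 8.79 and 8.38 in mutant and 9.35, 9.40, 9.43 and 9.45 in control hearts, with no overlap (log2 FC -1.02 with a standard error of 0.23, adjusted p = 0.0928). Gdf10 differed the other way (log2 FC 0.92 with a standard error of 0.21, adjusted p = 0.0932). Mstn, Bmp5 and the receptor gene Acvr1c were lower (-0.92, -0.51 and -0.66), and Gdf2 and Tgfb3 higher (0.56 and 0.58). Mstn and Acvr1c had values of -0.56 and -0.41 without mutant replicate 4, and Tgfb3 one of 0.37. In the Notch list of 19 genes the ligand genes Jag1 (-0.54, adjusted p = 0.0775) and Dll1 (-0.50, adjusted p = 0.158) were lower at the looser threshold and no target gene passed it. Among 28 FGF genes the ETS factor genes Etv1 and Etv4, targets of FGF signalling, and the ligand gene Fgf10 were lower (-0.67, -0.50 and -0.54) and the intracellular Fgf12 was higher (0.66). Etv1 was called through the dimmer of its 2 probe sets (log2 FC -0.61, adjusted p = 0.0127), while for the brighter one the adjusted p was 0.0920. Their relative Etv5 had a log2 FC of -0.07.

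None of 11 second heart field genes was called. Of these 9 were lower in the mean, against 49.1% of all genes, and the median was -0.08. Isl1, the transcription factor that marks these progenitors, had a log2 FC of -0.44 (adjusted p = 0.277). Of 13 Hedgehog and dorsal mesenchymal protrusion genes Ihh passed the looser threshold (-0.59), where 1.59% of all genes were lower and 1.33% higher. The target genes Gli1 and Ptch1 had values of 0.01 and 0.11. In the retinoic acid list of 21 genes, Hoxa5 lay at 6.87, 7.91, 7.17 and 7.20 in mutant and 5.98, 6.92, 6.45 and 5.65 in control hearts, which overlapped (log2 FC 1.04 with a standard error of 0.27, adjusted p = 0.165), and Dhrs3, a retinal reductase that responds to retinoic acid, had a log2 FC of 0.55.

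Of 25 cardiac transcription factor genes 21 passed no threshold, while Nr2f1 and Dach1 were called lower, and Prdm6 (-0.53, adjusted p = 0.0568) and Mecom (-0.55, adjusted p = 0.0635) were lower at the looser threshold. For all genes the shares were 0.150% called lower and 1.59% lower at the looser threshold. Nr2f1, the atrial nuclear receptor COUP-TFI, lay at 8.22, 7.34, 7.73 and 7.04 in mutant and 8.63, 9.03, 8.79 and 8.84 in control hearts and fell to 42.3% (log2 FC -1.24 with a standard error of 0.22, adjusted p = 0.0277), lost without M2, M4, C2, C3 or C4 (adjusted p 0.00641 to 0.254). Its relative Nr2f2 had a log2 FC of -0.04, and the remaining 10 atrial genes passed neither threshold. Dach1, a corepressor that guides coronary artery growth, lay at 7.45, 7.55, 7.75 and 7.50 in mutant and 8.06, 8.54, 8.28 and 8.06 in control hearts (log2 FC -0.67 with a standard error of 0.13, adjusted p = 0.0450), lost without M1, M2, M4, C1, C2, C3, C4, m1, m2, m3, m4, c1, c2 or c5 (adjusted p 0.0192 to 0.312). Nkx2-5, Gata4 and Tbx5 had values of -0.05, 0.07 and 0.20. None of the 16 ventricular genes passed either threshold.

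Of 19 neuronal genes 6 were lower at the looser threshold, against 1.59% of all genes, and the median was -0.08. These were Stmn2 (-0.81), the synaptic gene Snap25 (-0.77, adjusted p = 0.129), Tagln3 (-0.77, adjusted p = 0.108), Crmp1 (-0.56), Scg2 (-0.58) and Gata3, a factor of sympathetic neurons (-0.56, adjusted p = 0.0921). Gata3 lay at 8.36, 8.28, 8.22 and 8.28 in mutant and 8.89, 8.93, 8.69 and 8.85 in control hearts, with no overlap. The noradrenergic genes Th and Dbh had log2 FC values of 0.06 and 0.27. The list medians were -0.12, -0.37, -0.16 and -0.17 in mutant and 0.03, 0.06, -0.12 and -0.01 in control hearts, so that mutant replicate 1 lay level with control replicate 3, and the median log2 FC was -0.16 without that mutant heart, -0.15 without control replicate 1 and -0.05 without mutant replicate 4. Nhlh1, a neuronal helix-loop-helix factor, was called higher but was dim, at 5.80, 5.91, 6.00 and 5.86 in mutant and 5.24, 5.21, 4.99 and 5.41 in control hearts (log2 FC 0.68 with a standard error of 0.12, adjusted p = 0.0321), and its call was lost without M2, M3, M4, C1, C2 or C3 (adjusted p 0.0242 to 0.226). Lsamp, a neural adhesion molecule, was called lower (log2 FC -0.58 with a standard error of 0.11, adjusted p = 0.0450), lost without M1, M3, M4, C1, C2, C3, C4, m1, m3, c1, c2 or c5 (adjusted p 0.0185 to 0.271). Of 10 neural crest and glial genes the endothelin receptor Ednrb was lower at the looser threshold (-0.51), and Sox10, which defines glia, had a log2 FC of -0.12.

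Gfra2, the receptor for the neurotrophic factor neurturin, rose 2.28-fold. It lay at 8.59, 8.42, 8.64 and 8.56 in mutant and 7.42, 7.72, 7.30 and 7.01 in control hearts, the mutants within 0.3 of each other (log2 FC 1.19 with a standard error of 0.18, adjusted p = 0.0108). Its ligand Nrtn, the signalling partner Ret and the sister receptor Gfra1 had log2 FC values of -0.17, 0.29 and 0.30, and none of the 8 other genes of this family passed a threshold. Among 29 vasoactive and neuropeptide genes none was called. Calcr, the calcitonin receptor gene, came closest, at 6.00, 6.26, 6.31 and 7.13 in mutant and 7.48, 7.50, 7.38 and 7.61 in control hearts, with no overlap (log2 FC -1.07 with a standard error of 0.22, adjusted p = 0.0548). Besides Ednrb, Penk, Nts and Gcg were lower (-1.23, -0.86 and -0.59), and Adm, Edn1, Rxfp1, Mas1 and Npy1r were higher (1.21, 0.84, 0.69, 0.56 and 0.51), all at the looser threshold. For all genes the shares at that threshold were 1.59% lower and 1.33% higher. The value of Penk was -0.80 without mutant replicate 2 and that of Adm 0.81 without mutant replicate 4.

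A pair of complement genes rose. Cpn1, the catalytic subunit of carboxypeptidase N, which trims anaphylatoxins and kinins, lay at 8.17, 8.04, 8.68 and 8.23 in mutant and 6.90, 6.16, 6.85 and 7.35 in control hearts and rose 2.77-fold (log2 FC 1.47 with a standard error of 0.22, adjusted p = 0.00854). Cfi, the protease that inactivates deposited C3b and C4b, lay at 6.999, 6.73, 6.81 and 6.61 in mutant and 5.91, 5.51, 5.66 and 5.65 in control hearts and rose 2.14-fold (log2 FC 1.10 with a standard error of 0.21, adjusted p = 0.0446), a call lost without M1, M2, M3, M4, C1, C2, C3, C4, m4, c2 or c5 (adjusted p 0.0213 to 0.273). No other of the 26 complement genes measured was called, where 0.100% of all genes were called higher, and C8a passed the looser threshold downwards (-0.78). Both called proteins are made mainly by the liver, whose markers Alb and Afp had log2 FC values of 0.30 and 0.34, which overlapped between the groups, and that of Alb was -0.28 without mutant replicates 1 and 4. In the list of 17 liver genes 13 were higher in the mean, where 49.1% of all genes were lower. Serpina1c was higher at the looser threshold (0.71, or 0.45 without mutant replicate 1), and none was lower at it. The list median was 0.18, 0.01, 0.19 and 0.11 in mutant and 0.08, -0.06, 0.14 and 0.00 in control hearts. Cpn2, the other subunit of carboxypeptidase N, had a log2 FC of -0.37.

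Other called genes belong to no list. Plac8, a small cysteine-rich protein, lay at 7.95, 7.81, 7.67 and 8.14 in mutant and 6.06, 6.25, 6.27 and 5.70 in control hearts and rose 3.53-fold (log2 FC 1.82 with a standard error of 0.27, adjusted p = 0.00773). Mr1, which presents vitamin B metabolites to T cells, lay at 9.27, 9.04, 9.16 and 9.05 in mutant and 7.61, 7.61, 8.41 and 7.96 in control hearts and rose 2.35-fold (log2 FC 1.23 with a standard error of 0.16, adjusted p = 0.00279). Slc52a3, a riboflavin transporter, lay at 6.54, 6.91, 6.12 and 7.52 in mutant and 8.31, 8.03, 7.69 and 8.55 in control hearts and fell to 38.7% (log2 FC -1.37 with a standard error of 0.24, adjusted p = 0.0287). Lin7a, a scaffold protein of cell junctions, lay at 7.20, 6.59, 5.61 and 6.08 in mutant and 7.93, 8.05, 7.91 and 7.87 in control hearts and fell to 33.8% (log2 FC -1.57 with a standard error of 0.26, adjusted p = 0.0179). Fndc3c1, on the X chromosome, was called lower (log2 FC -1.07 with a standard error of 0.20, adjusted p = 0.0354), with a log2 FC of -1.09 (adjusted p = 0.0719) without mutant replicates 1 and 4, the hearts of high Xist. The call of Slc52a3 was lost without M1, M3, C1, C2 or C4 (adjusted p 0.00403 to 0.312), that of Lin7a without C3 (0.00255 to 0.226), and that of Fndc3c1 without M1, M3, C1, C2, C3, C4, m3, m4, c2, c4 or c5 (0.0162 to 0.312).

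The desmosomal gene Perp, a target of p53, lay at 10.05, 9.99, 10.02 and 9.87 in mutant and 10.65, 10.53, 10.62 and 10.72 in control hearts and fell to 63.7% (log2 FC -0.65 with a standard error of 0.13, adjusted p = 0.0450), lost without M1, M2, M3, M4, C1, C2, C3, C4, m3, m4, c2 or c5 (adjusted p 0.0121 to 0.244). In the p53 list of 18 genes it was the one called, Fas was higher at the looser threshold (0.62), and Mdm2 had a log2 FC of 0.08. The shares of all genes were 0.150% called lower and 1.33% higher at the looser threshold. Rian, an imprinted noncoding RNA of the Dlk1-Dio3 region, lay at 7.12, 6.93, 7.004 and 6.98 in mutant and 6.32, 6.16, 6.27 and 6.29 in control hearts and rose 1.68-fold (log2 FC 0.75 with a standard error of 0.14, adjusted p = 0.0363), lost without M1, M2, M3, M4, C1, C2, C3, C4, m3, c4 or c5 (adjusted p 0.00798 to 0.289). None of the 16 other imprinted genes passed a threshold, where 0.100% of all genes were called higher. Meg3 and Rtl1, the neighbours of Rian, had log2 FC values of 0.28 and 0.28. The unnamed transcript B130024G19Rik was called higher as well (log2 FC 0.96 with a standard error of 0.17, adjusted p = 0.0292), lost without M2, C1, C2, C3 or C4 (adjusted p 0.00196 to 0.337). Ppp1r14c, an inhibitor of protein phosphatase 1, and Crispld2, a secreted protein, were higher with log2 FC values of 0.59 and 0.59 (adjusted p = 0.0461 and 0.0412). Myo16, an unconventional myosin, and Snora62, a small nucleolar RNA, were lower, at -0.72 and -0.75 (adjusted p = 0.0446 and 0.0472). These 4 calls were lost without 14, 12, 15 and 13 of the 16 hearts in turn, with an adjusted p of at most 0.124.

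Erythroid and megakaryocyte genes were lower in the mean in every case, but hearts of both groups varied widely. All 29 erythroid genes had a negative log2 FC, with a median of -0.55, 11 passed the looser threshold, against 1.59% of all genes, and none was called. Without control replicate 4 the median was -0.36. Their list median relative to the control mean was -0.81, -0.02, -0.72 and -0.47 in mutant and 0.17, -0.66, -0.10 and 0.54 in control hearts. Mutant replicate 2 lay above control replicates 2 and 3, and in none of the 29 genes were the groups apart. Hemgn, a nuclear protein of blood progenitors, had the lowest log2 FC of the list, at 8.07, 10.60, 8.19 and 10.18 in mutant and 11.25, 10.19, 10.57 and 11.45 in control hearts (log2 FC -1.61 with a standard error of 0.47, adjusted p = 0.236). The heme and iron genes among the 11 were Cpox, Slc25a38, Tfrc, Tfr2 and Slc40a1, at -0.61 to -0.51 (Slc25a38, Slc40a1 and Tfr2 at -0.33, -0.36 and -0.34 without control replicate 4, and Tfrc at -0.34 without mutant replicate 3), and the red cell antigen gene Icam4 was at -0.67. The embryonic globin gene Hbb-y was near the top of the scale throughout, with a log2 FC of -0.02. All 13 megakaryocyte and platelet genes were negative as well (median -0.49, or -0.30 without mutant replicate 1), with P2ry1, Itga2 and Rgs18 past the looser threshold (-0.50, -0.51 and -1.05), and list medians of -0.77, -0.33, -0.54 and 0.03 in mutant and 0.00, -0.49, 0.11 and 0.36 in control hearts. Macrophage genes differed among the mutants, with list medians of 0.61, -0.25, 0.47 and -0.35 against 0.12, -0.07, 0.05 and -0.07 in control hearts, and Lyz2 alone passed the looser threshold (-0.64). Their median log2 FC of 0.18 became -0.10 without mutant replicate 1, 0.34 without replicate 2 and 0.04 without replicate 3. E2f2, which was the only one of 24 cell cycle genes past the looser threshold (-0.91, adjusted p = 0.0691), lay at 8.16, 8.70, 8.27 and 8.11 in mutant and 9.27, 8.65, 9.14 and 9.82 in control hearts, lowest among the controls in replicate 2, the control with the lowest erythroid median. Mki67 had a log2 FC of -0.42, and the cell cycle median was 0.02. The part of blood content in the difference of E2f2 was not tested.

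Genes induced by low oxygen were all positive, mainly through 1 heart. The 22 genes had a median log2 FC of 0.35, 4 were higher at the looser threshold (Adm, and Hilpda, Ndrg1 and Pfkfb3 at 0.73, 0.88 and 0.50) and none was called. The list medians were 0.21, 0.05, 0.08 and 1.04 in mutant and -0.02, -0.03, 0.06 and 0.07 in control hearts, and mutant replicate 4 was the highest of the 8 hearts in 21 of the 22 genes. Without that heart the median log2 FC was 0.12, and Hilpda, Ndrg1 and Pfkfb3 had values of 0.38, 0.29 and 0.21. Adm, the vasodilator adrenomedullin, lay at 8.64, 8.17, 8.16 and 9.94 in mutant and 7.60, 7.66, 7.10 and 7.70 in control hearts, so that mutant replicates 1 to 3 were also above every control (log2 FC 1.21 with a standard error of 0.32, adjusted p = 0.172, or 0.81 without replicate 4). Vegfa had a log2 FC of 0.56 (adjusted p = 0.533) with mutant values of 10.51, 10.13, 10.31 and 11.64. The same heart was highest among the mutants in Krt18, Tgfb3 and Igfbp3 above. Igfbp3 had a log2 FC of 0.75 (adjusted p = 0.104) without it. Interferon-induced genes, 20 in number, had a median of 0.04, with Gbp4, Cmpk2 and Ifi27l2a lower (-0.79, -0.76 and -0.60) and Slfn4, Rsad2 and Slfn1 higher (0.62, 0.60 and 0.58) at the looser threshold. That threshold was passed downwards by 1.59% and upwards by 1.33% of all genes.

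**Figure D4:**
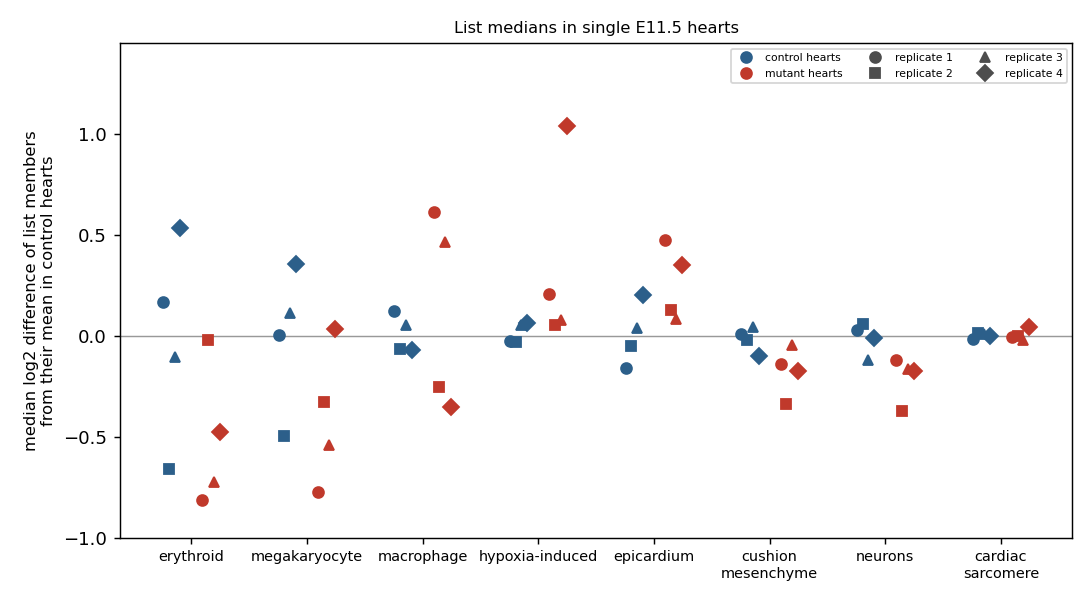
Median difference of the members of 8 lists from their mean in control hearts (vertical axis, log2) in each E11.5 heart, blue for control and red for mutant hearts, with the replicate shown by the shape. Mutant replicate 4 reaches 1.04 for hypoxia-induced genes while the other 7 hearts lie between -0.03 and 0.21, and erythroid medians of both groups overlap.

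Some called genes were dim. Olfr944, an olfactory receptor gene, was called higher at 4.87, 4.75, 5.04 and 4.92 in mutant and 4.34, 4.19, 4.29 and 4.17 in control hearts (log2 FC 0.65 with a standard error of 0.11, adjusted p = 0.0236). Of 1194 olfactory and vomeronasal receptor genes, whose median level was 4.64 against 7.73 for all genes, 31 were lower and 48 higher at the looser threshold, which is 2.60% and 4.02%. Those shares were 1.59% and 1.33% for all genes. Dim, too, were the called genes Gm12888 (-0.84, adjusted p = 0.0282), 1700128E19Rik (0.71, adjusted p = 0.0333), Krtap12-1, a keratin-associated protein (0.56, adjusted p = 0.0277), and Gm5478 (0.73, adjusted p = 0.0322), all below 7 in every E11.5 heart. Cfi above was also below 7 in all of them. Plac8 and Kcnip1 above were among the dimmest 40% of probe sets by mean level over the 16 arrays. The calls of Olfr944, Gm12888, 1700128E19Rik, Krtap12-1 and Gm5478 were lost without 5, 4, 9, 5 and 6 of the 16 hearts in turn, with an adjusted p of at most 0.0991.

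At E13.5 most of the genes called at E11.5 had a smaller change of the same sign, but no difference between the stages passed the test. The sign was shared by 46 of the 50 genes, and 45 had a smaller change at E13.5. The genes were chosen by their change at E11.5, which by itself makes a smaller value at the other stage likely. Of all genes, 0 had an adjusted p under 0.05 for the difference between the stages in limma (smallest 0.764), and 790 (3.96%) had an unadjusted p under 0.05. Rgs5 lay at 9.55, 9.98, 9.39 and 9.42 in mutant and 8.59, 9.17, 9.56 and 9.72 in control hearts at E13.5, a log2 FC of 0.32 (standard error 0.38), and the adjusted p of the difference from E11.5 was 0.795. Dkk1 lay at 6.75, 6.69, 6.17 and 6.60 and 6.65, 7.14, 6.20 and 6.56, a log2 FC of -0.09, and for Slc52a3 the value was 0.12, with adjusted p values of the difference of 1.00 and 0.840. For Mb the log2 FC at E13.5 was -0.94, for Cpn1 1.93, for Plac8 1.57 and for Nr2f1 -1.43, with the same sign as at E11.5. The epicardial median at E13.5 was 0.36, the cushion median -0.19, the erythroid median -0.13 and the hypoxia median 0.14.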

How the data were processed

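RNA of single hearts was hybridised to Affymetrix Mouse Gene 1.0 ST arrays. The authors deposited log2 values made by RMA in affy and fitted limma, per the labels and the methods. Software versions, and whether both stages were normalised together, are not given in the sources used here. All 16 arrays (4 groups of 4 hearts, grouped by their titles) were fitted by group in limma 3.58.1 (R 4.3.3), with the mutant minus control contrast at E11.5, the same at E13.5 and their difference. Of 34760 probe sets, 21640 name 1 gene in the platform annotation, 1321 name several and 11799 none. Only the first kind was used for 19937 genes, 954 of which have more than 1. The fit was tested on simulated data. Tables and figures used Python 3.11.15 and matplotlib 3.10.9.

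Named were Chd7, the 15 called genes of largest change in each direction outside the study's pathways, up to 4 genes of smallest p in each list, genes that define a cell type and relatives of called genes. The other called genes, and list members past the looser threshold, were named after their values were seen. The members, the 44 lists (863 genes, 806 measured) and the promoter motifs were chosen with earlier results of these data and the paper's account known. The alternatives were each heart left out in turn, E11.5 alone, centring, cyclic loess or quantile normalisation, weights for arrays, another prior of the variances, a filter on dim probe sets (lowest 40%), the median of probe sets, a replicate block, a Y-linked covariate, no fold threshold and, added later, the mutant hearts of low Xist only.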

Additional observations from a re-analysis of the deposited data

Results flagged for a closer look

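In these results 1 heart lay far from the other 3 of its group by Dixon's test, as did 22 of the 410 groups of 4 tested, where chance gives about 1 in 20. For the hypoxia-induced genes it was mutant replicate 4, whose list median was 1.04 against 0.05 to 0.21 in the other mutants. The same heart stood high in Krt18 (11.05, the others 9.70 to 9.75) and low in Sema3a (8.66) and Slfn1 (5.93). Mutant replicate 1 stood high in Nts (6.50) and Sost (8.35) and low in Crmp1 (7.64). Mutant replicate 2 stood high in Myo16 (7.50), and mutant replicate 3 in Mal2 (7.29, the others 5.65 to 5.91) and Trabd2b (9.37).

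Among the controls, replicate 1 stood high in Gata4 (11.92). Replicate 2 stood high in Slfn4 (5.71) and low in Kcne3 (6.00). Replicate 3 stood high in Bmp5 (10.17), Etv2 (7.49) and Trdn (10.99) and low in Adm (7.10) and Sox10 (6.64). Replicate 4 stood high in Gm5478 (5.97) and low in Grin3a (7.60), Rtl1 (5.95) and Th (6.81). None of these differences was weighed further, and p values above include every heart.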

How the results depend on the processing

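The 30 genes called lower and 20 higher became 0 and 2 with the E11.5 arrays alone, where Chd7 kept its log2 FC of -1.29 at an adjusted p of 0.0708. They became 10 and 7 with a Y-linked covariate, 7 and 6 with array weights, and 18 and 10 with the mutant hearts of low Xist only, where 520 genes were higher at the looser threshold. The median of probe sets gave 31 higher. Leaving out each heart in turn gave 10 to 30 lower and 7 to 24 higher. The lowest counts came without control replicate 3 (10 and 7). Without the limit on the fold change 950 and 912 genes passed an unadjusted p of 0.05, and without dim probe sets 204 and 116 passed the looser threshold. The cause of these shifts was not tested. Some alternatives leave fewer hearts or genes, and every E11.5 array had a lower weight than every E13.5 array. Of 158 named genes with an unadjusted p under 0.05, 0 changed sign in limma under any alternative. Of 38 with a higher p, 20 did, all with a log2 FC of at most 0.30 in size. The count of genes whose change differs between the stages stayed at 0 throughout.

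With the replicate number as a block the counts were 3 lower and 1 higher. Deviations of same-numbered mutant and control hearts correlated at -0.02, -0.03, 0.01 and 0.01 across probe sets, and those of other pairs at -0.11 to 0.07. The sources do not say what the numbers stand for, and these values cannot decide whether they pair the hearts.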
